A study of Mus musculus with 9 samples.

Results

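Inhibitory interneurons of the hippocampus were followed through 7 marker genes in bulk RNA of hippocampus: Gad1, Gad2, Slc32a1, Pvalb, Reln, Lhx6 and Erbb4. The 7 were chosen by name with earlier results of these data known, so counts among them beside shares of all genes test no enrichment. Each matched exactly 1 row of the deposited tables of 55471 genes, and all 7 passed the filter on low counts that 17396 genes passed. The RNA came from 9 libraries of female mice aged 9 months, 3 in each of 3 groups. WT vehicle mice are labelled C57BL/6J and 3xTg vehicle mice carry the label APPSwe/tauP301L/PS1 with a changed presenilin residue, and both received blank solvent by mouth 4 times per week. Treated mice, called 3xTg LP-10d here, are 3xTg mice that for 1 month received an oral LP-10d dose of 10 mg/kg, also 4 times per week. The presenilin change in the labels runs from M146V to M151V over the 6 libraries of 3xTg mice, 1 residue further in each, whereas the 3xTg line is known for M146V alone. Human APP and tau of this line are driven by a Thy1 promoter that is active in neurons, and the line's strain background and its transgenes cannot be told apart in a comparison with C57BL/6J. The labels do not say whether each library is a separate animal, so every test measures the spread between these libraries only.

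Interneurons release GABA, the main inhibitory transmitter, onto the pyramidal and granule cells of the hippocampus. GABA is made from glutamate by 2 decarboxylases, GAD67 (Gad1) and GAD65 (Gad2), and is loaded into synaptic vesicles by the transporter VGAT (Slc32a1). Lhx6 is a LIM homeodomain factor of interneurons born in the medial ganglionic eminence, the source of the fast-spiking cells that hold the calcium buffer parvalbumin (Pvalb). Reelin (Reln) is a large secreted glycoprotein made in the adult hippocampus by interneurons and by Cajal-Retzius cells, and Erbb4 is the receptor tyrosine kinase through which neuregulins act on interneurons. GABAergic projection neurons of the striatum also express Gad1, Gad2 and Slc32a1, and stellate cells of the entorhinal cortex express Reln. In bulk RNA, fewer cells of a type and less RNA per cell cannot be told apart.

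Total counts ran from 16582086 to 19170969 per library. Hippocampal principal neuron markers were present in every library, with a summed level of 718 to 1331 CPM (read counts scaled to a common library size with the TMM method) over 10 genes. By chi-square over genes, WT vehicle replicate 3 was least like the others, at 43.0 to 58.6 per degree of freedom in its pairs. Pairs without it were at 4.99 to 27.0. In tissue markers, the library 3xTg vehicle replicate 2 stood apart. Its 10 striatal projection neuron markers summed to 1589 CPM, against 195 to 330.3 CPM in the other 8 libraries, and its principal neuron sum was the lowest. Thalamic and habenular markers were highest in WT vehicle replicate 3, at 473 CPM, and next in 3xTg vehicle replicate 2, at 368 CPM, against 120 to 239.9 CPM elsewhere. Choroid plexus markers varied most, from 44.8 to 4402 CPM, with low and high libraries in every group. No marker of the striatal, thalamic, neocortical or Cajal-Retzius lists had a count of 0 in any library.

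Levels of different genes were compared on the deposited FPKM, which are per kilobase of gene. Gad1 was the most abundant of the 7, at 38.4 ± 5.19 FPKM (SD over 9 libraries), and lay above Slc32a1 in all 9 libraries. Slc32a1 (25.3 ± 6.47 FPKM), Pvalb (19.9 ± 4.80) and Gad2 (19.5 ± 4.09) followed with ranges that overlapped. Within libraries, Slc32a1 was above Pvalb in 7 of 9, and its ratio to Gad2 was at least 1.01 in all 9. Pvalb was above Gad2 in only 5 of 9 libraries, so Pvalb and Gad2 did not differ beyond their spread. A gap then separated the 4 genes of GABA synthesis, packaging and calcium buffering from Lhx6 (4.05 ± 0.429 FPKM), Reln (3.11 ± 0.631) and Erbb4 (1.98 ± 0.307). Of the first 4, Gad2 had the lowest mean and was at least 16.3 FPKM in every library, while Pvalb fell to 11.2 FPKM. Lhx6 never exceeded 4.66 FPKM. Lhx6 was above Reln in 8 of 9 libraries and Reln above Erbb4 in all 9.

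**Figure D1:**
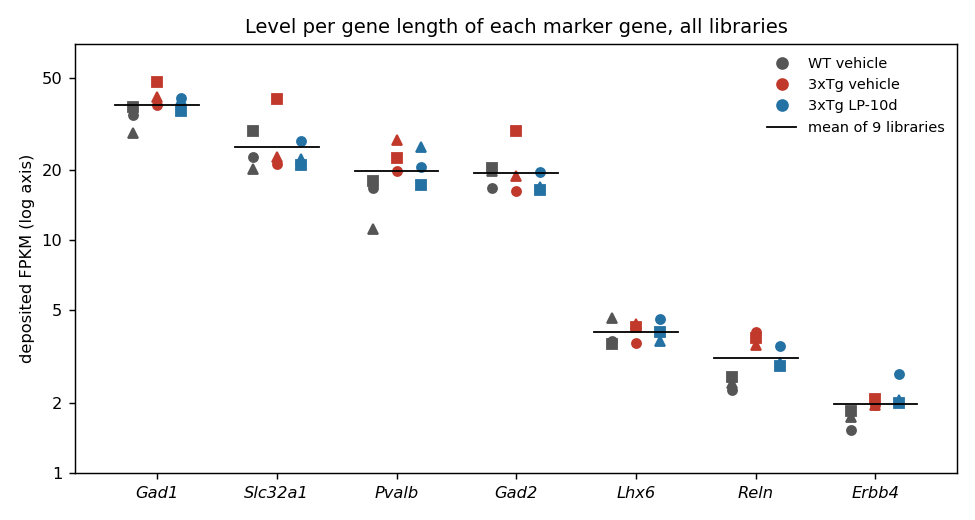
Deposited FPKM (log axis) of each marker gene in the 9 libraries, coloured by group, with symbols for replicates 1 (circle), 2 (square) and 3 (triangle) and a line at the mean of 9 libraries. The 4 genes on the left lie between 11.2 and 48.0 FPKM and the 3 on the right between 1.53 and 4.66 FPKM.

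The first comparison asked how the hippocampus of 3xTg vehicle mice differs from that of WT vehicle mice. None of the 7 genes passed the adjusted threshold of edgeR's quasi-likelihood test, which 0.00575% of all tested genes passed (1 of 17396). Reln came nearest, with a 1.52-fold higher mean in 3xTg vehicle. Gad1, Pvalb and Erbb4 were also higher in every 3xTg vehicle library than in any WT vehicle library, whereas Gad2, Slc32a1 and Lhx6 overlapped between the groups. At an unadjusted p under 0.05 edgeR counted 3 of the 7 (Reln, Pvalb and Gad1), where 14.1% of all genes did so, and DESeq2 called Reln alone, where it called 2.02% of all genes. Groups that did not overlap, with the 3xTg libraries higher, were seen in 4 of the 7 genes and in 9.38% of all genes (17.4% counting both directions), and with the 3xTg libraries lower in 0 of the 7 and 7.99%. Of the 7 log2 fold changes 6 were above 0, as were 50.2% over all genes.

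**Figure D2:**
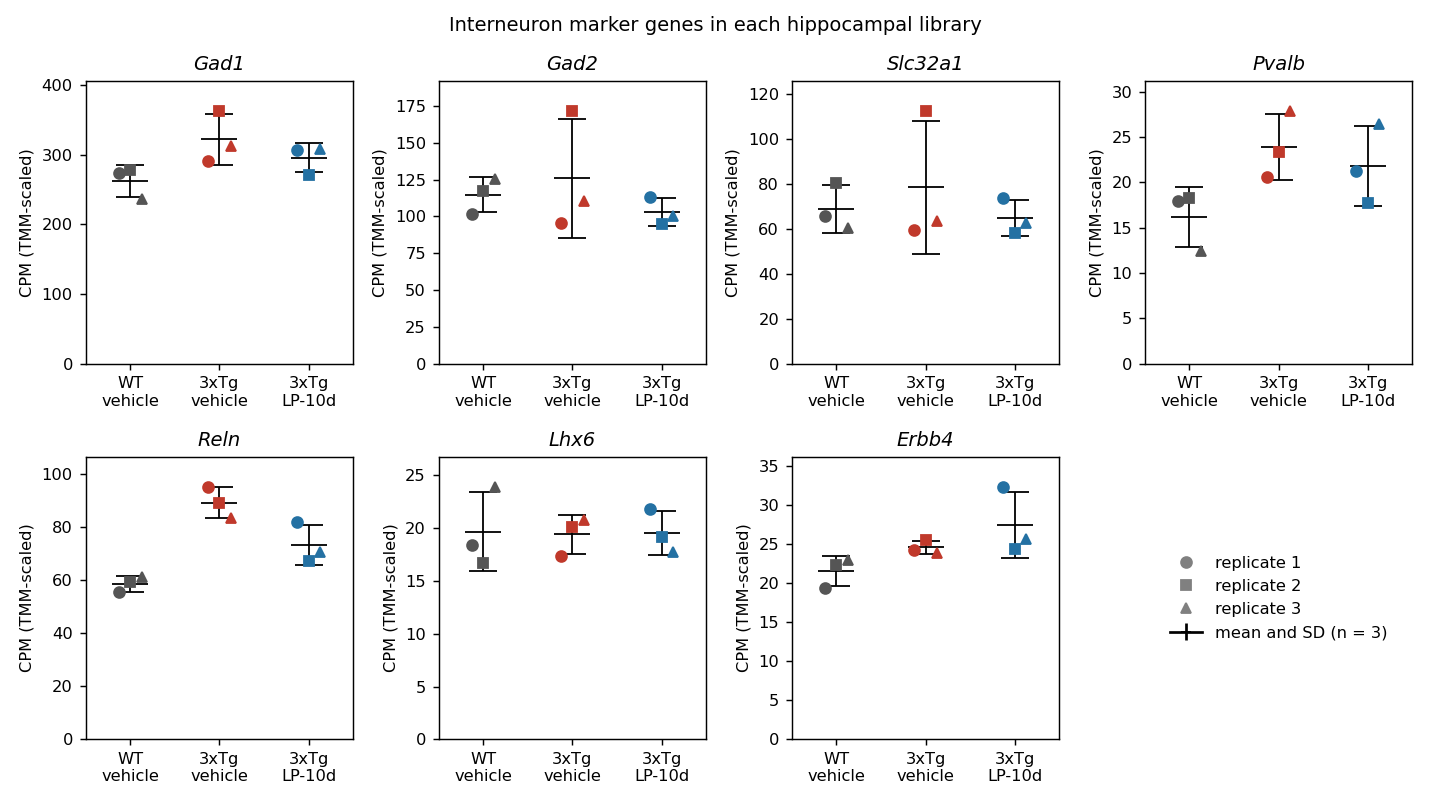
TMM-scaled CPM of each marker gene by library, with 3 libraries per group and bars for the mean and SD. Reln in 3xTg vehicle (83.5 to 95.2 CPM) lies above both other groups, and the square of 3xTg vehicle replicate 2 stands high for Gad2 (171 CPM) and Slc32a1 (112 CPM).

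Reln (ENSMUSG00000042453, mm10 chromosome 5, 21884454 to 22344702, minus strand) was at 55.5, 59.4 and 61.4 CPM in WT vehicle replicates 1 to 3. It was at 95.2, 89.3 and 83.5 CPM in 3xTg vehicle and at 81.9, 67.5 and 70.6 CPM in 3xTg LP-10d. The 3 groups did not overlap at all: every treated library lay between the highest WT vehicle and the lowest 3xTg vehicle library. Means were 58.8 ± 2.99, 89.3 ± 5.85 and 73.3 ± 7.61 CPM (SD, n = 3 each), from at least 972 counts per library. The log2 fold change in 3xTg vehicle against WT vehicle was 0.60 ± 0.09 (SE), a 1.52-fold difference with a 95% interval of 1.31 to 1.76, and ranked 14 by p among 17396 genes (edgeR adjusted p = 0.0758). DESeq2 gave adjusted p = 2.27e-05 and limma-voom 0.098. It was as large without 3xTg vehicle replicate 2 (0.60) and without that library and WT vehicle replicate 3 together (0.63). The genes whose levels followed Reln most closely over the libraries, by the likeness measure given with Slc32a1, were Zkscan16 (0.081), Gramd2 (0.082) and Stk10 (0.097).

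The DNA before the Reln start is shown because Reln was the member whose groups did not overlap in all 3 comparisons, beside the windows of Slc32a1, the member with the widest spread within a group (coefficient of variation 37.5% in 3xTg vehicle), and of Pvalb, a gene of similar fold change in the first comparison. Each window holds the 250 bases before a RefSeq start (GRCm38.p6), 5′ to 3′ on the gene's strand. The windows lie at chr5:22344706-22344955 (minus strand) for Reln, chr2:158610508-158610757 (plus strand) for Slc32a1 and chr15:78206401-78206650 (minus strand) for Pvalb. Pvalb has 2 RefSeq starts and Lhx6 has 3, and for each the start nearest the Ensembl 5′ end of the gene was used. Capitals mark the GC box, searched as GGGCGG on both strands.
Reln: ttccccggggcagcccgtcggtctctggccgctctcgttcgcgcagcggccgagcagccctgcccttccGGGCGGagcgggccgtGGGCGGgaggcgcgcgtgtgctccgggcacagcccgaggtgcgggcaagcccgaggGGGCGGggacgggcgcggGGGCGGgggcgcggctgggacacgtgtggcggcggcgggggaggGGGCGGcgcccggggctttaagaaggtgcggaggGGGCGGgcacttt
Slc32a1: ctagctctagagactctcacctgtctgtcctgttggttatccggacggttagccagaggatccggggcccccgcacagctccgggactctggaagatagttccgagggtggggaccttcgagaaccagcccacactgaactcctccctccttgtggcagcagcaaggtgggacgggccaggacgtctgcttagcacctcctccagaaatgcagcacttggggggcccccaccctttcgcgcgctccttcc
Pvalb: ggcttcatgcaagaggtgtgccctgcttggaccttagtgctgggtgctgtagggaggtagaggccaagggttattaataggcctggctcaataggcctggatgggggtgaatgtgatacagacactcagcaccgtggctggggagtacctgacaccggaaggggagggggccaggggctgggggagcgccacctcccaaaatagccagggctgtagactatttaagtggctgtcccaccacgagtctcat
The Reln window held 6 GC boxes and the other windows shown held 0. Of the members not shown, Gad1 and Lhx6 had 1 GC box each, and Gad2 and Erbb4 had 0. The 1 RefSeq start of Gad1 lies 9057 bases from its Ensembl 5′ end, against at most 122 bases for the other members. Among 32851 promoter windows of this length, 32.7% held at least 1. GC content was 80.0% in the Reln window, above 98.8% of all windows, against 62.4% for Slc32a1, 58.4% for Pvalb and a median of 52.4%. The observed over expected ratio of CpG was 0.99 for Reln, 0.50 for Slc32a1 and 0.20 for Pvalb. Over the windows of all 7 genes, 0 held the homeodomain core TAATTA, which 4.8% of all windows held, and 5 held an E-box (CANNTG, its own reverse complement), which 66.2% held. These matches describe the letters of the windows only.

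Genes that act with reelin were read from a list of 9. Against WT vehicle, 6 of 9 were higher and 3 lower in 3xTg vehicle, with a median log2 fold change of 0.02 beside 0.00066 over all genes, and 0 passed edgeR's adjusted threshold. Pafah1b1, the gene of the dynein regulator LIS1, was at 365 ± 48.7 (WT vehicle) and 425 ± 9.74 CPM (3xTg vehicle) (SD, n = 3 each), and these groups did not overlap, with a log2 fold change of 0.22 that was 0.11 without WT vehicle replicate 3. Dab1, the adaptor phosphorylated when reelin binds, was at 129 ± 19.4 and 113 ± 20.1 CPM, with overlapping groups and a log2 fold change of -0.19 that was -0.05 without 3xTg vehicle replicate 2. Of the reelin receptors, Lrp8 was at 119 ± 13.1 (WT vehicle) and 117 ± 4.71 CPM (3xTg vehicle).

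Cajal-Retzius cells and entorhinal cortex are other sources of Reln, and their markers went different ways. Of the Cajal-Retzius list, 8 of 9 genes were tested and 6 of these were lower in 3xTg vehicle, with a median log2 fold change of -0.65 and 0 past edgeR's adjusted threshold. DESeq2 called 2 of these 8, Reln itself, which is on this list, and Ebf3, where it called 2.02% of all genes. Trp73, the p53 relative that marks these cells, was at 9.83 ± 3.08 (WT vehicle) and 5.34 ± 0.699 CPM (3xTg vehicle) (SD, n = 3 each), and Ebf3 at 2.79 ± 1.64 and 0.795 ± 0.414 CPM. For neither did the groups overlap, with 3xTg vehicle lower, as for 7.99% of all genes. Without WT vehicle replicate 2 the log2 fold changes of Trp73 and Ebf3, -0.88 and -1.81, were -0.67 and -1.21. Ebf3 lay near the floor, and its log2 fold change was -0.25 on log2(FPKM + 1), where fold changes of low genes are understated. Neocortical and entorhinal markers were higher in 9 of 10, with a median of 0.54 that was 0.30 without 3xTg vehicle replicate 2. Of these 10, 0 passed edgeR's adjusted threshold while DESeq2 called 2 (Lamp5 and Cux2), beside 2.02% of all genes. Cux2, a homeodomain factor of upper cortical layers, was at 47.1 ± 14.6 and 98.5 ± 25.0 CPM. Summed over the list, these cortical markers reached between 280 and 382 CPM (WT vehicle), between 358 and 486 (3xTg vehicle) and between 323 and 424 (3xTg LP-10d). Their part in the Reln difference was not tested.

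The 2 decarboxylases are given next. Gad1 (ENSMUSG00000070880, chromosome 2, 70553072 to 70602014, plus strand) was at 273, 278 and 237 CPM in the WT vehicle libraries, 292, 362 and 312 CPM in those of 3xTg vehicle, and 307, 272 and 308 CPM in the treated ones. The 3xTg vehicle libraries were all above WT vehicle, and treated replicate 2 fell within the WT vehicle range. The log2 fold change in 3xTg vehicle against WT vehicle was 0.29 ± 0.10 (SE), or 1.23-fold with a 95% interval of 1.04 to 1.44 (edgeR adjusted p = 0.279). Without 3xTg vehicle replicate 2 it was 0.20, and without that library and WT vehicle replicate 3 it was 0.13.

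Gad2 (ENSMUSG00000026787, chromosome 2, 22622205 to 22693874, plus strand) was at 102, 117 and 125 CPM in the WT vehicle libraries, 95.5, 171 and 110.4 CPM in those of 3xTg vehicle, and 113, 95.2 and 100.5 CPM in the treated ones. The library with the high striatal sum, 3xTg vehicle replicate 2, was the highest of all 9 and the groups overlapped. The coefficient of variation within 3xTg vehicle was 31.9%, against 10.5% in WT vehicle, 9.09% in 3xTg LP-10d and a counting error of about 2.09%. The log2 fold change of 0.13 ± 0.19 (SE; edgeR adjusted p = 0.763) turned to -0.16 without 3xTg vehicle replicate 2. Per length, the ratio of Gad2 to Gad1 spanned 0.483 to 0.687 (WT vehicle), 0.426 to 0.615 (3xTg vehicle) and 0.424 to 0.48 (3xTg LP-10d).

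Slc32a1 (ENSMUSG00000037771, chromosome 2, 158610767 to 158615748, plus strand) was at 65.7, 80.6 and 60.3 CPM in the WT vehicle libraries, 59.3, 112 and 63.6 CPM in those of 3xTg vehicle, and 73.5, 58.1 and 62.7 CPM in the treated ones. The highest library was again 3xTg vehicle replicate 2, and the groups overlapped. Among WT vehicle libraries, replicate 3 had the highest Gad2 and the lowest Slc32a1. The log2 fold change of Slc32a1 in 3xTg vehicle, 0.19 ± 0.22 (SE; edgeR adjusted p = 0.713), turned to -0.16 without 3xTg vehicle replicate 2. Between members, likeness was measured as the root mean square difference of log2 CPM over the 9 libraries, each gene centred on its own mean. Gad2 and Slc32a1 were the most alike of the 21 pairs of members (0.14), and Gad2 and Pvalb the least (0.415). Among 13795 other genes with a mean of at least 1 CPM, those most like Slc32a1 were Tbc1d4 and Pde1c (0.12 each) and Ivns1abp (0.131). Those most like Gad2 were Tgfa (0.059), Acy3 and Kcne1l (0.10 each), and those most like Gad1 were Jade1 (0.045), Them6 (0.05) and Stab1 (0.055).

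In 3xTg vehicle replicate 2, Gad2 lay 0.60, Slc32a1 0.70 and Gad1 0.31 log2 units above their means of 9 libraries, against 0.30 for Reln, 0.22 for Pvalb, 0.07 for Erbb4 and 0.05 for Lhx6. The striatal list scored 2.78 there, on the same centred log2 scale averaged over its genes, and from -0.68 to 0.42 in the other libraries. Drd2, the D2 dopamine receptor, was at 79.7 CPM in this library and at 3.16 and 3.68 CPM in the other 3xTg vehicle libraries, and Drd1 at 47.2 CPM against 5.73 and 7.62 CPM. How far striatal tissue enters the level of the GABA genes there was not tested.

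**Figure D3:**
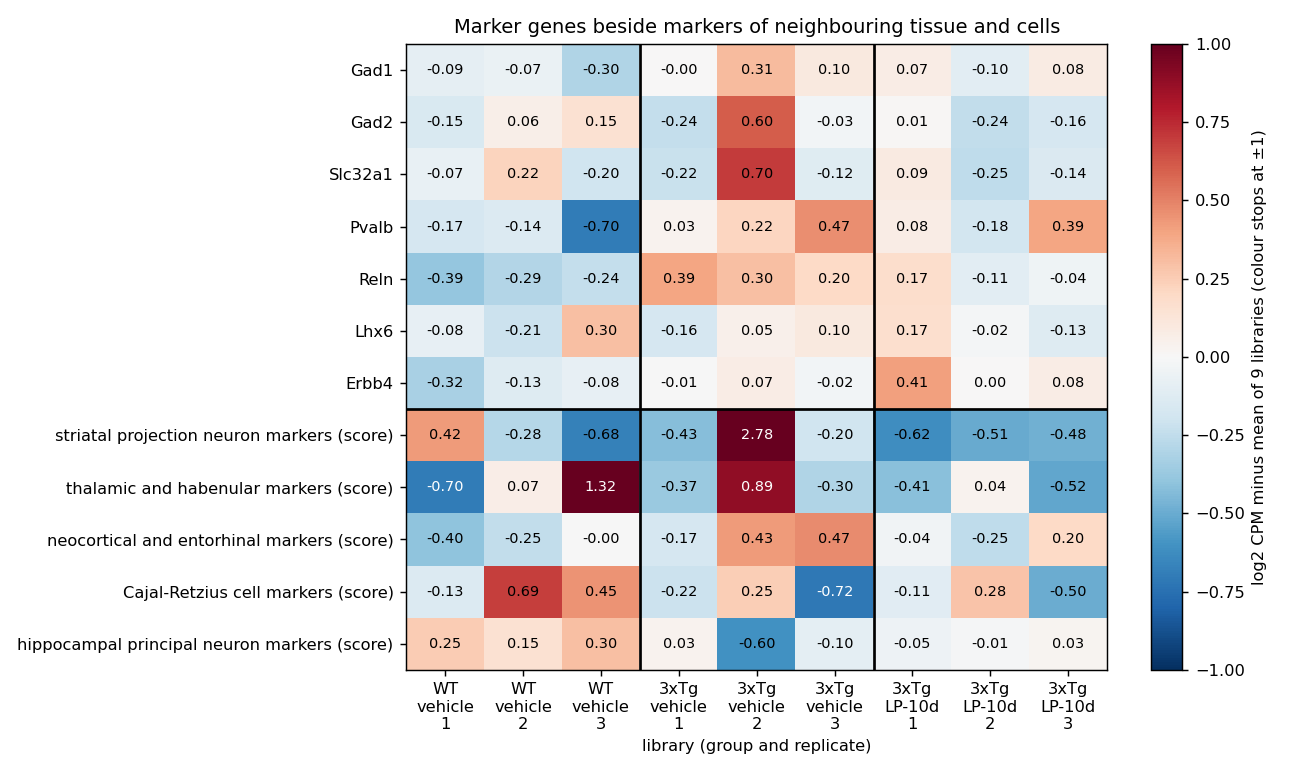
Centred log2 CPM of the 7 marker genes (top) and of the mean over each marker list (score, bottom) in each library, with colours that stop at 1 in either direction and the value printed in each cell. The column of 3xTg vehicle replicate 2 holds the highest Gad2, Slc32a1 and Gad1 values (0.60, 0.70 and 0.31) beside the highest striatal score (2.78).

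Lhx6 (ENSMUSG00000026890, chromosome 2, 36081953 to 36105408, minus strand) differed least between groups. It was at 18.3, 16.7 and 23.9 CPM in the WT vehicle libraries, 17.3, 20.1 and 20.7 CPM in those of 3xTg vehicle, and 21.8, 19.1 and 17.7 CPM in the treated ones. The WT vehicle libraries spanned all the others. The log2 fold change in 3xTg vehicle against WT vehicle was -0.02 ± 0.15 (SE), with a 95% interval of -0.35 to 0.31 (edgeR adjusted p = 0.967). By the same measure, Tcp11l1 and Tent2 were among the 3 genes most like Lhx6 over the 9 libraries (root mean square differences of 0.057 and 0.06). Of the 14 interneuron lineage factors, 4 were higher and 10 lower in 3xTg vehicle, with a median log2 fold change of -0.11, and 0 passed edgeR's adjusted threshold or reached an unadjusted p under 0.05. The smallest p belonged to Satb1, a chromatin organiser of somatostatin and parvalbumin cells, at 77.7 ± 10.0 (WT vehicle) and 103 ± 30.2 CPM (3xTg vehicle) (SD, n = 3 each), with overlapping groups and a log2 fold change of 0.41 that was 0.19 without 3xTg vehicle replicate 3. The median of the list was 0.04 without WT vehicle replicate 3.

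Pvalb (ENSMUSG00000005716, chromosome 15, 78191114 to 78206400, minus strand) was at 17.9, 18.3 and 12.4 CPM in the WT vehicle libraries and 20.6, 23.4 and 27.8 CPM in those of 3xTg vehicle. In 3xTg LP-10d it was at 21.2, 17.7 and 26.5 CPM. All 3xTg vehicle libraries were above WT vehicle, while treated replicate 2 lay within the WT vehicle range. The lowest value belonged to WT vehicle replicate 3, the library with the highest thalamic sum. Relative to WT vehicle, 3xTg vehicle had a log2 fold change of 0.56 ± 0.19 (SE), or 1.48-fold with a 95% interval of 1.10 to 1.98 (edgeR adjusted p = 0.264). Without WT vehicle replicate 3 it was 0.39. On the FPKM scale, Pvalb relative to Lhx6 was 3.99 ± 1.40 (WT vehicle), 5.68 ± 0.444 (3xTg vehicle) and 5.22 ± 1.45 (3xTg LP-10d; SD, n = 3 each). The WT vehicle range of 2.40 to 5.05 lay under the 3xTg vehicle range of 5.37 to 6.19. WT vehicle replicate 3 gave the 2.40, with replicates 1 and 2 at 4.52 and 5.05. In the other ratios between members that were computed, these groups overlapped. Pvalb relative to Gad1, for example, spanned 0.384 to 0.483 (WT vehicle) and 0.473 to 0.654 (3xTg vehicle). The genes most like Pvalb over the libraries were Rims4, Rnf227 and Ptp4a3 (root mean square differences of 0.10, 0.11 and 0.115).

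Other interneuron subclasses were read from a list of 25 genes, of which 24 were tested. In 3xTg vehicle 15 were higher and 9 lower than in WT vehicle, with a median log2 fold change of 0.06, and 0 passed edgeR's adjusted threshold. An unadjusted p under 0.05 was reached by 4 of the 24, beside 14.1% of all genes, and DESeq2 called 2, beside 2.02% of all genes. Those 2 were Vip, the peptide of interneurons that inhibit other interneurons (WT vehicle 8.41 ± 0.924, 3xTg vehicle 15.9 ± 3.89 CPM; DESeq2 adjusted p = 0.0107), and Lamp5, a marker of neurogliaform cells (31.5 ± 2.0 and 57.8 ± 11.04 CPM; DESeq2 adjusted p = 0.00143; SD, n = 3 each). Lamp5 is also on the neocortical list. Cort, the somatostatin-like peptide cortistatin, was lower, at 5.89 ± 1.04 and 3.74 ± 0.445 CPM. In the list of GABA synthesis, packaging and reuptake, 5 of 9 genes were higher and 4 lower, with a median of 0.12 that was -0.09 without 3xTg vehicle replicate 2, and 0 passed edgeR's adjusted threshold. Slc6a11, the GABA transporter GAT3 of astrocytes, was at 265 ± 46.0 (WT vehicle) and 230.2 ± 57.5 CPM (3xTg vehicle), and its log2 fold change of -0.20 was -0.43 without 3xTg vehicle replicate 2 and -0.065 without WT vehicle replicate 3.

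Erbb4 (ENSMUSG00000062209, chromosome 1, 68032186 to 69108059, minus strand) was at 19.4, 22.3 and 23.0 CPM in the WT vehicle libraries, 24.2, 25.5 and 23.9 CPM in those of 3xTg vehicle, and 32.3, 24.4 and 25.6 CPM in the treated ones. Every library of 3xTg mice was above every WT vehicle library, and treated replicate 1 was the highest. Its log2 fold change in 3xTg vehicle was 0.19 ± 0.12 (SE), with a 95% interval of -0.08 to 0.46 (edgeR adjusted p = 0.495), and was 0.12 without WT vehicle replicate 1. The spread within 3xTg vehicle, 3.55%, was no larger than the counting error of 4.72% for its 439 to 460 counts. Shmt1, Nhp2 and Hexim2 were the genes most like Erbb4 over the libraries (root mean square differences of 0.071, 0.08 and 0.082). Of 10 genes of the neuregulin and ErbB pathway, 6 were higher and 4 lower in 3xTg vehicle (median 0.06), and 0 passed edgeR's adjusted threshold or were called by DESeq2. An unadjusted p under 0.05 was reached by 1 of the 10, beside 14.1% of all genes. That 1 gene was Nrg1, a ligand of Erbb4, at 4.58 ± 0.537 (WT vehicle) and 7.90 ± 3.56 CPM (3xTg vehicle) (SD, n = 3 each), and its log2 fold change of 0.78 was 0.36 without 3xTg vehicle replicate 2. Erbb3, the related receptor of the oligodendrocyte lineage, was at 22.2 ± 3.24 and 17.9 ± 1.18 CPM, and the ligand Nrg3 at 36.6 ± 7.69 and 31.2 ± 1.79 CPM. The log2 fold change of Erbb3, -0.31, was -0.18 without WT vehicle replicate 2, and that of Nrg3, -0.23, was -0.06 without WT vehicle replicate 3. Oligodendrocyte precursor markers, from cells that also use ErbB receptors, were lower in 7 of 7 (median -0.16), with 0 past edgeR's adjusted threshold.

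The surroundings of interneurons were read from a pair of further lists. Perineuronal nets, the matrix that encloses parvalbumin cells, had 3 of 8 genes higher and 5 lower in 3xTg vehicle (median -0.03), with tenascin-R (Tnr) at 240.1 ± 46.2 (WT vehicle) and 186 ± 12.5 CPM (3xTg vehicle) and the link protein Hapln4 at 171 ± 32.3 and 137 ± 12.2 CPM (SD, n = 3 each). Without WT vehicle replicate 3 the log2 fold changes of Tnr and Hapln4, -0.37 and -0.32, were -0.23 and -0.20. Of the 8, 2 reached an unadjusted p under 0.05, beside 14.1% of all genes, and 0 passed edgeR's adjusted threshold or were called by DESeq2. Among 9 genes of the inhibitory postsynapse 2 were higher and 7 lower (median -0.14), and 0 passed edgeR's adjusted threshold or were called by DESeq2. The chloride exporter Slc12a5, which sets the direction of GABA currents, was the 1 gene there at an unadjusted p under 0.05, at 757 ± 76.2 and 917 ± 30.3 CPM (SD, n = 3 each). Pan-neuronal genes were higher in 6 of 11 (median 0.04), led by Tubb3, the neuronal tubulin (WT vehicle 285 ± 15.7, 3xTg vehicle 435 ± 1.42 CPM; SD, n = 3 each; DESeq2 adjusted p = 6.33e-08), and 0 passed edgeR's adjusted threshold. Hippocampal principal neuron markers were lower in 9 of 10 (median -0.54, and -0.38 without 3xTg vehicle replicate 2). Astrocyte markers were lower in 5 of 6 (median -0.13, and -0.06 without WT vehicle replicate 3). In either list 0 passed edgeR's adjusted threshold, and DESeq2 called 1 principal neuron marker, Amigo2, beside 2.02% of all genes. Choroid plexus markers were lower in 8 of 8 (median -2.55), with 0 past edgeR's adjusted threshold. Of these 8, 5 reached an unadjusted p under 0.05, beside 14.1% of all genes.

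Treated 3xTg mice were next set against 3xTg vehicle mice, the comparison that addresses the effect of the compound. None of the 7 genes passed edgeR's adjusted threshold, and 0% of all tested genes did. Reln was lower in every treated library than in any 3xTg vehicle library, the 1 member without overlap in that direction, where 5.81% of all genes were so, and 0 members lay higher without overlap (5.82% of all genes). Gad1, Gad2, Slc32a1, Pvalb and Reln had negative log2 fold changes, and Lhx6 and Erbb4 positive ones, 2 of 7 against 49.9% of all genes. At an unadjusted p under 0.05 edgeR counted 1 of the 7, Reln, where 2.9% of all genes did so, and DESeq2 called 0 of the 7. This comparison and the first share the 3xTg vehicle libraries, so their values are not separate evidence about them. Tissue marker lists also differed between treated and 3xTg vehicle libraries. In treated libraries 10 of 10 striatal markers were lower (median log2 fold change -1.91). So were 8 of 8 thalamic and habenular (-0.53) and 8 of 10 neocortical and entorhinal markers (-0.29). Choroid plexus markers were higher in 8 of 8 (1.79) and principal neuron markers in 8 of 10 (0.19). The part of other tissue in the members' values was not tested.

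The log2 fold change of Reln in 3xTg LP-10d against 3xTg vehicle was -0.28 ± 0.09 (SE), or 0.821-fold with a 95% interval of 0.711 to 0.949, at edgeR adjusted p = 1.00 (range over alternatives 0.401 to 1.00). Gad1 had a log2 fold change of -0.12 (95% interval -0.36 to 0.11) and Pvalb one of -0.13 (-0.55 to 0.29). Gad2 and Slc32a1 were at -0.29 and -0.27, and at 0.00040 and 0.08 without 3xTg vehicle replicate 2. Lhx6 was at 0.01 (-0.32 to 0.34). Erbb4 was at 0.16 (-0.11 to 0.43), and at 0.03 without treated replicate 1.

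Among the lists, 0 genes passed edgeR's adjusted threshold in this comparison and DESeq2 called 0 of them. Of 9 genes of GABA synthesis, packaging and reuptake 7 were lower (median log2 fold change -0.11), among them Slc38a1, a glutamine transporter of interneurons, at 173 ± 5.52 (3xTg vehicle) and 161 ± 5.51 CPM (3xTg LP-10d; SD, n = 3 each) without overlap. Interneuron lineage factors were lower in 8 of 14 (median -0.05). Dlx6 was at 4.53 ± 3.21 (3xTg vehicle) and 2.82 ± 0.789 CPM (treated), and its log2 fold change of -0.66 was 0.08 without 3xTg vehicle replicate 2. Interneuron subclass markers were higher in 11 of 24 (median -0.01), and 2 of the 24 reached an unadjusted p under 0.05, beside 2.9% of all genes. These were Cort, at 3.74 ± 0.445 and 5.88 ± 2.18 CPM, and Calb2, the calcium buffer calretinin, which is also on the Cajal-Retzius list, at 24.8 ± 11.2 and 41.2 ± 14.0 CPM. The reelin list had 5 of 9 higher (median 0.0010), with the adaptor Crkl at 59.5 ± 1.07 and 56.3 ± 1.39 CPM. The neuregulin list had 5 of 10 higher (median 0.01), with Nrg1 at 7.90 ± 3.56 and 5.74 ± 0.955 CPM and a log2 fold change of -0.46 that was -0.03 without 3xTg vehicle replicate 2. Perineuronal net genes were lower in 5 of 8 (median -0.04), led by the hyaluronan synthase Has3 at 6.44 ± 0.679 and 4.85 ± 0.343 CPM. Inhibitory postsynapse genes were lower in 5 of 9 (median -0.05), with Slc12a5 at 917 ± 30.3 and 806 ± 31.6 CPM (SD, n = 3 each). Without 3xTg vehicle replicate 2 the medians turned to 0.06 for lineage factors, 0.05 for subclass markers, -0.04 for the reelin list, 0.01 for the inhibitory postsynapse and 0.0084 for GABA synthesis, packaging and reuptake. Cort had a log2 fold change of 0.65 that was 0.37 without treated replicate 1, and Calb2 one of 0.73 that was 0.43 without 3xTg vehicle replicate 3 and 0.44 without treated replicate 2. The median over all genes was -0.00033.

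The third comparison set treated 3xTg mice against WT vehicle mice. None of the 7 genes passed edgeR's adjusted threshold, which 0% of all tested genes passed. Reln and Erbb4 were higher in all 3 treated libraries than in any WT vehicle library, 2 of the 7 where 7.49% of all genes were so, and 0 members were lower without overlap (6.89% of all genes). Log2 fold changes were above 0 in 4 of 7, against 49.5% of all genes. At an unadjusted p under 0.05 edgeR counted Reln, Erbb4 and Pvalb, where 8.75% of all genes did so, and DESeq2 called 0 of the 7 and 0.264% of all genes. WT vehicle libraries serve here and in the first comparison.

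Reln had a log2 fold change of 0.32 ± 0.09 (SE), or 1.25-fold with a 95% interval of 1.08 to 1.44 (edgeR adjusted p = 0.527). Erbb4 had one of 0.35 ± 0.12 (SE), or 1.27-fold with a 95% interval of 1.06 to 1.53 (edgeR adjusted p = 0.566), and of 0.21 without treated replicate 1. Pvalb was at 0.43 ± 0.19 (SE), with a 95% interval of 0.0032 to 0.85 (edgeR adjusted p = 0.569), and at 0.26 without treated replicate 3 and 0.27 without WT vehicle replicate 3. Gad1 was at 0.17, Gad2 at -0.16, Slc32a1 at -0.09 and Lhx6 at -0.01, each with an interval that includes 0. The interval of Lhx6 ran from -0.33 to 0.32.

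**Figure D4:**
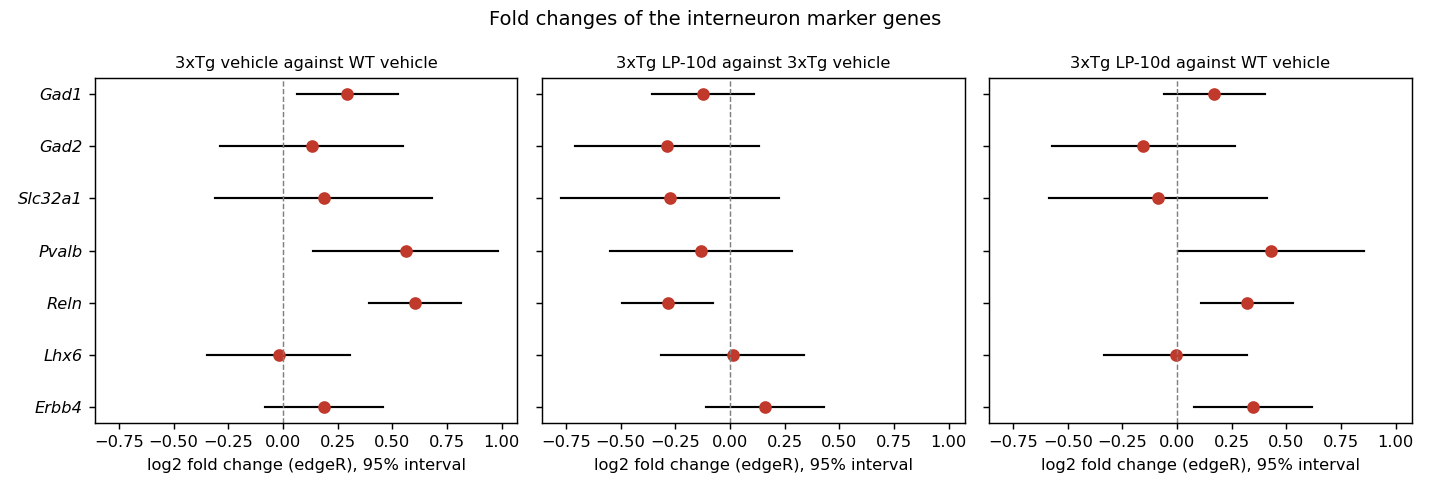
Log2 fold changes of the 7 marker genes (points) with 95% intervals (lines) from edgeR in the 3 comparisons, which share groups. The interval of Reln lies to the right of 0 in both comparisons with WT vehicle (0.39 to 0.81 and 0.11 to 0.53) and to the left between treated and 3xTg vehicle libraries (-0.49 to -0.08), before any adjustment for the number of genes.

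In the lists, 0 genes passed edgeR's adjusted threshold in the third comparison, and DESeq2 called 1 of them, Tubb3 on the pan-neuronal list. Interneuron subclass markers were higher in 16 of 24 (median log2 fold change 0.09), with treated levels of 13.2 ± 3.56 CPM for Vip and 45.8 ± 11.6 CPM for Lamp5 (SD, n = 3 each), both above the whole WT vehicle range. Interneuron lineage factors were lower in 8 of 14 (median -0.03), with Dlx2 at 5.26 ± 0.247 CPM against 6.91 ± 1.74 CPM in WT vehicle. The reelin list had 5 of 9 higher (median 0.02) and the neuregulin list 5 of 10 (median 0.02). Perineuronal net genes were lower in 7 of 8 (median -0.14), with Tnr at 189 ± 13.6 CPM against 240.1 ± 46.2 CPM. Inhibitory postsynapse genes were lower in 6 of 9 (median -0.06), with Shisa7, an auxiliary subunit of GABA-A receptors, at 295 ± 12.7 CPM against 412 ± 125 CPM. GABA synthesis, packaging and reuptake genes were lower in 5 of 9 (median -0.09). Leaving out WT vehicle replicate 3 brought the log2 fold changes of Shisa7 from -0.48 to -0.21, of Dlx2 from -0.39 to -0.20 and of Tnr from -0.35 to -0.21. Leaving out treated replicate 3 brought those of Vip from 0.66 to 0.42 and of Lamp5 from 0.54 to 0.31. The median over all genes was -0.0027.

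Reads of other genes within the members' loci were few. Overlapping genes of the GENCODE M21 annotation held counts equal to at most 0.225% of a member's own, in Reln, and Gad1os, the antisense partner of Gad1, had 1 to 9 counts per library against at least 4256 for Gad1. The counting setting for strand is not given in the sources used here.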

How the data were processed

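RNA of hippocampus from 9 libraries was sequenced. The authors deposited raw counts per Ensembl gene and FPKM values for the 33175 genes with a count in any library. The build named is mm10, per the submitters' processing notes. Aligner, counter and strand: not given in the sources used here. The deposited positions of the 7 members equalled GENCODE M21. The deposited FPKM are counts divided by 1 length per gene and by the total count (largest relative deviation 6.66e-16).

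Counts were analysed with edgeR 4.0.16 in R 4.3.3: genes were filtered with filterByExpr, libraries scaled by TMM and all 9 fitted in 1 model of group means, with the quasi-likelihood test (newer method) and Benjamini-Hochberg adjustment over 17396 genes at a threshold of 0.05. SE and 95% intervals come from the same test. CPM use TMM-scaled library sizes of the genes passing the filter. DESeq2 1.42.0, limma 3.58.1 (voom, and limma-trend on log2(FPKM + 0.1) and log2(FPKM + 1), where fold changes of low genes are understated), other scalings and filters, a replicate block and leaving out libraries were alternatives. With 3 libraries on each side, exact permutation would give p = 0.1 at the least.

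The 7 members, the 16 lists (159 genes, all matched) and the naming rule were chosen with earlier results of these data known. All members are named in every comparison. From each list, up to 4 genes with the smallest edgeR p in a comparison could be named, and the first 2 genes of lists of other tissues. Lrp8 in the first comparison was chosen after its values were seen. A gene that the rule selects by likeness is not reported here. Likeness is the root mean square difference of centred log2 CPM (prior count 0.5).

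The deviations of libraries with the same replicate number correlated over 0.1 in all 3 pairs of 3xTg LP-10d with 3xTg vehicle (0.117 to 0.373), in 1 of 3 pairs of 3xTg LP-10d with WT vehicle (0.144) and in 0 of 3 pairs of 3xTg vehicle with WT vehicle. Libraries of different numbers reached 0.382, and the labels give no pairing. No pair of libraries of a group agreed within sampling noise by chi-square over genes. On simulated data for 3xTg vehicle against WT vehicle (17202 genes, 200 changed, mean counts of at least 50), the share of changed genes that edgeR found was 34.3% at 1.5-fold, 82.1% at 2-fold and 97.0% at 4-fold, and 2.07% of its calls were false. For DESeq2 the shares were 59.7%, 92.5% and 97.0%, and 16.6% of calls were false.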

Additional observations from a re-analysis of the deposited data

How the results depend on the processing

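Over 23 alternatives to each result, 0 of the 7 members passed in any comparison, except Reln in 3xTg vehicle against WT vehicle with DESeq2 (1 member called). There the log2 fold change of Reln ran from 0.48 (FPKM + 1) to 0.65. Leaving aside DESeq2 and the edgeR fit with DESeq2 size factors, the adjusted p of Reln ran from 0.0611 to 0.318. The cause of the difference between DESeq2 and edgeR was not tested. The values that changed sign follow, as log2 fold changes, with none past the threshold in either direction. In 3xTg vehicle against WT vehicle, leaving out WT vehicle replicate 3 and 3xTg vehicle replicate 2 together gave -0.094 for Gad2, -0.26 for Slc32a1, 0.068 for Dab1, -1.16 for Drd2 and 0.11 for Lhx6. Lhx6 was at 0.035 with FPKM + 0.1, with and without the filter, and at 0.028 with FPKM + 1. Leaving out 1 library gave ranges of -0.16 to 0.29 for Gad2, -0.16 to 0.35 for Slc32a1, -0.12 to 0.14 for Lhx6 and -1.23 to 2.37 for Drd2. In 3xTg LP-10d against 3xTg vehicle, the same 2 libraries left out gave 0.0055 for Gad2, 0.081 for Slc32a1 and 0.087 for Dlx6, and leaving out 1 library gave -0.44 to 0.00040 for Gad2, -0.43 to 0.076 for Slc32a1, -0.94 to 0.082 for Dlx6 and -0.074 to 0.077 for Lhx6. In 3xTg LP-10d against WT vehicle, Lhx6 was at 0.0052 with limma-voom, 0.0040 with the replicate block in 9 libraries, 0.00040 with the block in 6, 0.049 with FPKM + 0.1 (filtered or not), 0.039 with FPKM + 1 and 0.16 without both libraries, and leaving out 1 library gave -0.11 to 0.16 for Lhx6 and -0.19 to 0.040 for Slc32a1.

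In 3xTg vehicle against WT vehicle all genes called numbered 1 in the reported fit, 352 with DESeq2, 3 with no filter, 3 with FPKM + 0.1, 2 with FPKM + 1, 17 with FPKM + 0.1 unfiltered, and 0 to 11 when 1 library was left out. In 3xTg LP-10d against 3xTg vehicle they numbered 0, 1 with DESeq2 and 8 with unfiltered FPKM. In 3xTg LP-10d against WT vehicle they numbered 0, 46 with DESeq2, 7 with unfiltered FPKM and 0 to 2 when 1 library was left out. The replicate block in 9 libraries left 0 members called in each comparison, with Reln at 0.60 (adjusted p = 0.108) in 3xTg vehicle against WT vehicle. The block in the 6 libraries compared, chosen after seeing the data, called 1 gene in 3xTg LP-10d against 3xTg vehicle, no member among them. Counts of members without overlap, also added after seeing the data, stayed at 4 higher in 3xTg vehicle against WT vehicle without either or both libraries (backgrounds 14.2%, 15.1% and 21.7%), and 1 member, Slc32a1, was then lower without both (background 20.5%). Without 3xTg vehicle replicate 2, 1 member, Erbb4, was higher in 3xTg LP-10d against 3xTg vehicle (background 11.6%). Of the medians of lists under alternatives, 54 moved by more than the spread between replicates and 1050 did not. Reln rested on 972 counts or more per library and Pvalb on 223 or more. At the mean count of a group, counting error was at most 5.82%, for Pvalb in WT vehicle, and the spread between libraries limits the precision.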
